A study of Mus musculus with 12 samples.

Results

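The genes described are 8 regulators of apoptosis: 1 caspase (Casp8) and 7 members of the BCL2 family (Bcl2, Bcl2l1, Mcl1, Bax, Bak1, Bbc3 and Pmaip1). They were chosen by symbol from the deposited tables, with their levels in these libraries already known. Their own levels and fold changes are thus given as a description, and tests are read only for other genes of the pathway. The 8 were fitted along with all other genes, and how many passed in alternative runs is given near the end only to describe those runs. All 8 were among the 47069 gene identifiers of the tables, and all 8 were among the 15925 genes that passed the filter on low counts. The series measured RNA from intracranial B16 F1 tumors, a pigmented mouse melanoma line, 9 days after 100000 cells were implanted into the brain of C57BL/6 mice. Its 12 libraries form 4 groups of 3. The first group carried an intracranial and an extracranial tumor and received anti-PD-1 plus anti-CTLA-4, antibodies that block inhibitory receptors of T cells, together called therapy here. The second carried both tumors and received IgG. The third carried the intracranial tumor only and received therapy. The fourth carried the intracranial tumor only and received IgG. Every animal thus had a brain tumor, grown from a single cell line in a host with its own immune cells, and the tumors were taken whole, with no sorting of cells. The design asks whether the response of a brain tumor to therapy depends on a tumor outside the brain.

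Apoptosis is run by proteases called caspases. In the death receptor branch, ligands such as FasL activate caspase 8 at the cell surface. In the mitochondrial branch, BAX and BAK open the outer mitochondrial membrane, pro-survival proteins such as BCL2, BCL-XL (Bcl2l1) and MCL1 hold them back, and BH3-only proteins such as PUMA (Bbc3) and NOXA (Pmaip1) neutralize the pro-survival proteins. Most of this control acts on proteins, so transcript levels do not show how much cell death took place.

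Library totals ran from 18427495 to 22294182 counted reads. The 7 melanoma markers summed to between 21470 and 28780 CPM (counts scaled to library size with TMM factors) in every library. Neuron markers differed widely between libraries. The 10 of them summed to 259 to 905 CPM in both-tumor therapy libraries, 6.37 to 424 CPM in both-tumor IgG libraries, 4.38 to 13.1 CPM in intracranial-only therapy libraries and 107 to 355 CPM in intracranial-only IgG libraries. Replicate 2 of the both-tumor IgG group, at 6.37 CPM, stood with the intracranial-only therapy libraries in this respect, and Rbfox3 and Gad2 had 0 reads in intracranial-only therapy replicate 2, as did Nefl in replicate 3. The 8 T cell markers summed to 49.5 to 105 CPM in both-tumor therapy libraries, 2.33 to 18 CPM in both-tumor IgG libraries, 2.41 to 13.2 CPM in intracranial-only therapy libraries and 1.24 to 25.3 CPM in intracranial-only IgG libraries. In such bulk tissue, fewer cells of a type and less RNA per cell cannot be told apart.

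FPKM, a level scaled by gene length and library total, allows different genes to be compared. By FPKM, the effector Bax and the pro-survival gene Mcl1 were the most abundant of the 8. Bax ranked first in 10 of 12 libraries, at 118 to 238 FPKM, and Mcl1 ranked first in the other 2, replicates 2 and 3 of the both-tumor therapy group, at 133 to 177 FPKM across all libraries. Bak1, the other effector, had rank 3 in 11 libraries, at 75.2 to 123 FPKM. Bcl2l1 (29.5 to 70.8 FPKM) and Casp8 (38.2 to 65.7 FPKM) shared ranks 4 and 5, with Bcl2l1 ahead in 8 libraries and Casp8 ahead in 4, so their order did not hold across libraries. Bbc3 (10.6 to 18.1 FPKM) had rank 6, Bcl2 (5.87 to 8.68 FPKM) rank 7 and Pmaip1 (0.0613 to 1.47 FPKM) rank 8 in all 12 libraries. Bcl2, after which the family is named, was thus well below Bcl2l1 and Mcl1 in each tumor.

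The 8 genes also differed in how much they varied. The SD of log2 CPM over the 12 libraries was 0.13 for Mcl1, 0.16 for Bcl2, 0.20 for Casp8, 0.21 for Bak1, 0.25 for Bbc3, 0.32 for Bax, 0.34 for Bcl2l1 and 1.37 for Pmaip1, against a median of 0.35 over all tested genes. Only 6.42% of tested genes had a smaller SD than Mcl1, and 89.0% had a smaller SD than Pmaip1. The highest library exceeded the lowest by 1.33-fold for Mcl1, by 2.35-fold for Bcl2l1 and by 23.5-fold for Pmaip1, which had only 3 to 85 reads per library.

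**Figure D1:**
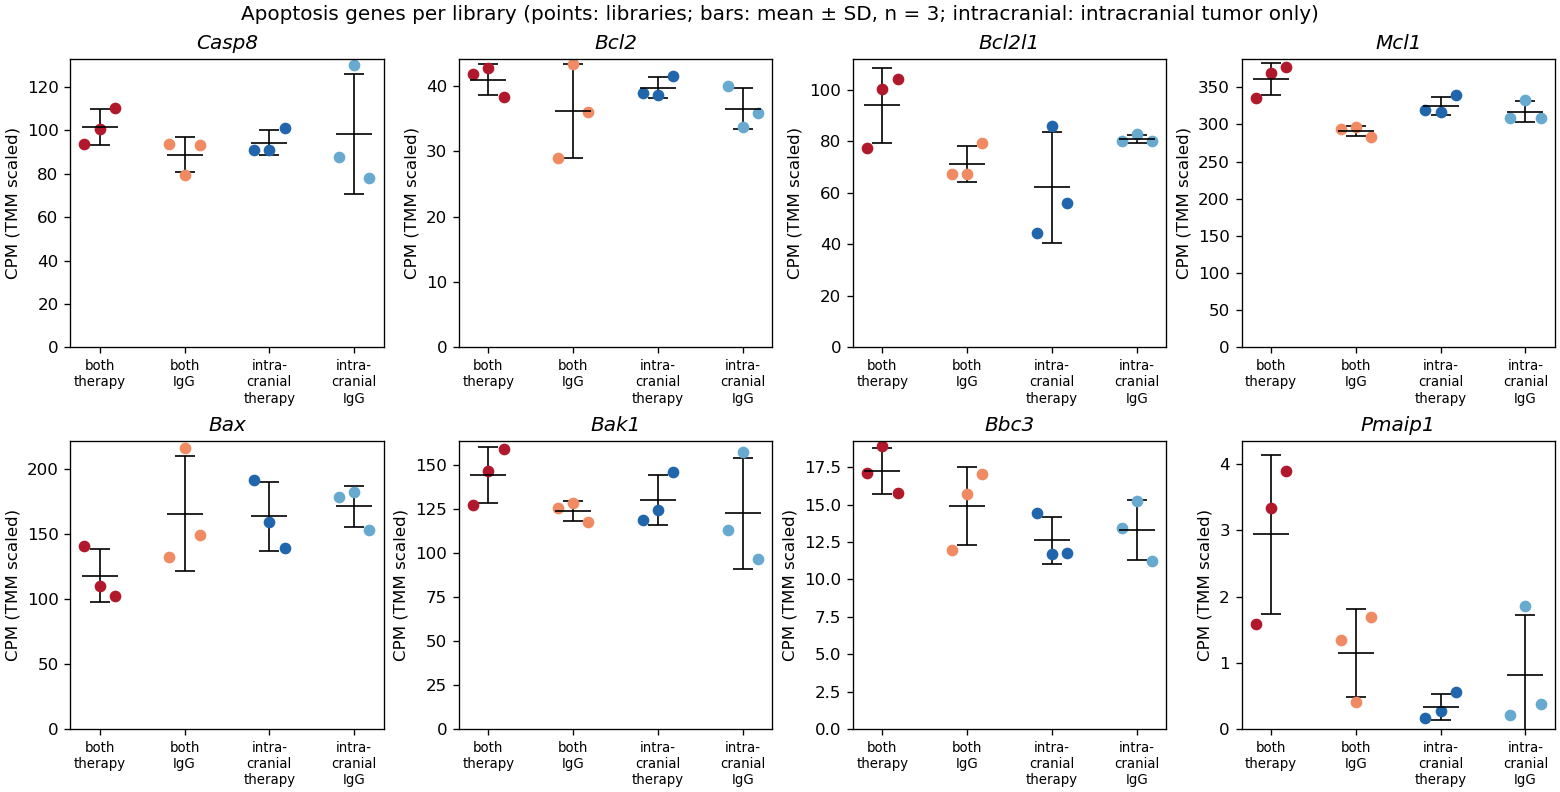
TMM-scaled CPM of the 8 apoptosis genes, 1 panel a gene, with 1 point a library and bars for the mean ± SD (n = 3) of each group. Pmaip1 was highest in 2 of the 3 both-tumor therapy libraries, at 3.33 and 3.90 CPM, whereas Mcl1 spans only 283 to 378 CPM; the lower bar of Pmaip1 in intracranial-only IgG ends at the axis.

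Casp8 encodes the initiator caspase of the death receptor branch (GRCm38 chromosome 1, 58795374 to 58847503). In replicate order, it had 93.6, 101 and 110.0 CPM in both-tumor therapy libraries, 93.5, 79.5 and 93.2 CPM in both-tumor IgG libraries, 90.8, 91.1 and 101 CPM in intracranial-only therapy libraries, and 87.6, 129.8 and 77.8 CPM in intracranial-only IgG libraries. The highest of the 12 was thus an IgG-treated library, replicate 2 of the intracranial-only group, and the other 2 of that group were among the 3 lowest. Group means were 101 ± 8.21, 88.7 ± 7.96, 94.3 ± 5.81 and 98.4 ± 27.6 CPM in the same order of groups (SD, n = 3 each), with each mean within 1 SD of at least 1 other.

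Among the pro-survival genes, Bcl2 showed little separation of groups, with 41.8, 42.8 and 38.3 CPM in both-tumor therapy libraries, 29.0, 43.4 and 36.0 CPM in both-tumor IgG libraries, 38.9, 38.6 and 41.6 CPM in intracranial-only therapy libraries, and 40.0, 33.8 and 35.9 CPM in intracranial-only IgG libraries. Both the lowest and the highest value of the 12 came from both-tumor IgG libraries. Bcl2l1, which encodes BCL-XL, had 77.3, 100.4 and 104 CPM in both-tumor therapy libraries, 67.5, 67.2 and 79.4 CPM in both-tumor IgG libraries, 44.4, 86.0 and 56.1 CPM in intracranial-only therapy libraries, and 80.0, 82.7 and 80.3 CPM in intracranial-only IgG libraries. Its 2 highest libraries were both-tumor therapy and its 2 lowest were intracranial-only therapy, with the other intracranial-only therapy library, replicate 2 at 86.0 CPM, above all 6 IgG libraries. Mcl1, a short-lived pro-survival protein in many cell types, had 336, 369 and 378 CPM in both-tumor therapy libraries, 294, 296 and 283 CPM in both-tumor IgG libraries, 319, 317 and 339 CPM in intracranial-only therapy libraries, and 309, 333 and 309 CPM in intracranial-only IgG libraries. All 3 both-tumor IgG libraries lay below the other 9, and 1 intracranial-only therapy library lay above the lowest both-tumor therapy library.

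The effectors Bax and Bak1 ran differently from each other. Bax had 141, 110.4 and 103 CPM in both-tumor therapy libraries, 132, 216 and 149 CPM in both-tumor IgG libraries, 192, 159 and 139.7 CPM in intracranial-only therapy libraries, and 178, 182 and 153 CPM in intracranial-only IgG libraries. Its 2 lowest libraries were both-tumor therapy, while its highest was the both-tumor IgG library that was poor in neuron transcripts. Bak1 had 127, 147 and 159 CPM in both-tumor therapy libraries, 126, 129 and 118 CPM in both-tumor IgG libraries, 119, 125 and 146 CPM in intracranial-only therapy libraries, and 113, 158 and 96.9 CPM in intracranial-only IgG libraries. Intracranial-only IgG replicate 2 had the highest Casp8 of the 12 and the second highest Bak1, and its replicates 1 and 3 were the 2 lowest for Bak1. Whether counting used strand is not stated in the sources at hand, so reads of overlapping genes cannot be told apart. Bak1 overlaps Ggnbp1 on the opposite strand along 9200 bases. Ggnbp1 itself was listed with 12 to 44 reads, against 1804 to 3468 for Bak1, and the antisense RNA that overlaps Bcl2 had 0 or 1 read. On the same strand, Casp8 shares 3841 bases with Gm37760, listed with 1 to 10 reads. Bax shares 915 bases on its strand with the protein-coding gene Gm45808, for which no count was at hand. These counts do not show how many reads were shared.

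Of the BH3-only genes, Bbc3 had 17.1, 18.9 and 15.8 CPM in both-tumor therapy libraries, 12, 15.7 and 17.1 CPM in both-tumor IgG libraries, 14.4, 11.7 and 11.7 CPM in intracranial-only therapy libraries, and 13.4, 15.3 and 11.2 CPM in intracranial-only IgG libraries. The 3 both-tumor therapy libraries lay above the 3 intracranial-only therapy libraries and overlapped both-tumor IgG. Pmaip1 had 1.59, 3.33 and 3.90 CPM in both-tumor therapy libraries, 1.34, 0.404 and 1.69 CPM in both-tumor IgG libraries, 0.166, 0.274 and 0.553 CPM in intracranial-only therapy libraries, and 0.211, 1.86 and 0.376 CPM in intracranial-only IgG libraries. Those levels rest on 35, 67 and 85 reads in both-tumor therapy libraries, 28, 8 and 34 reads in both-tumor IgG libraries, 3, 5 and 12 reads in intracranial-only therapy libraries, and 4, 36 and 7 reads in intracranial-only IgG libraries. As for Casp8, intracranial-only IgG replicate 2 was far above the other 2 of its group, and it exceeded the lowest both-tumor therapy library.

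Therapy was first set against IgG in mice with both tumors. Pmaip1 differed most, with 2.94 ± 1.20 CPM under therapy and 1.14 ± 0.66 CPM under IgG (SD, n = 3 each), a log2 fold change of 1.36 ± 0.76 (SE). Mcl1 was at 361 ± 22 CPM under therapy and 291 ± 7.15 CPM under IgG, a log2 fold change of 0.31 ± 0.08. Bax went the other way, with 118 ± 20.2 CPM under therapy and 166 ± 44.4 CPM under IgG, a log2 fold change of -0.49 ± 0.20, and Bcl2l1 had a log2 fold change of 0.40 ± 0.21. Casp8 (0.19 ± 0.17), Bak1 (0.22 ± 0.17), Bbc3 (0.21 ± 0.18) and Bcl2 (0.18 ± 0.14) had smaller log2 fold changes, all above 0. The therapy libraries lay above the IgG libraries with no overlap for 2 members, Mcl1 and (by 93.6 against 93.5 CPM) Casp8, as for 17.9% of tested genes, and below them for 0 members, as for 20.1%.

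Of 47 tested genes of the wider pathway, 2 passed an adjusted p of 0.05 in edgeR's quasi-likelihood test, the threshold used throughout, as did 5.39% of all tested genes, so the share in the pathway was near that of all genes. The 47 include 4 genes, named below, that were tested only through the both-tumor therapy libraries, and neither call is theirs. Casp2, a caspase linked to genome stress, fell, with 57.9, 49.7 and 51.4 CPM in the therapy libraries and 66.3, 78.8 and 65.7 CPM in the IgG libraries (log2 fold change -0.41 ± 0.10, adjusted p 0.0498), and Bcl2l2, which encodes the pro-survival protein BCL-W, rose, with 60.6 ± 12.4 CPM under therapy and 34.9 ± 4.96 CPM under IgG (0.79 ± 0.16, adjusted p 0.0498). The gene with the smallest p in each of the other lists did not pass: Birc5 had a log2 fold change of -1.41 ± 0.38 (adjusted p 0.0523), Btg2 of 1.22 ± 0.37 (0.062), Bcl2l11 of 0.70 ± 0.24 (0.0833) and Cflar of 0.73 ± 0.26 (0.0914). Both calls sit at the threshold, and both were lost when any 1 of 9 libraries was left out. Those 9 were both-tumor therapy replicates 2 and 3, the first 2 of the both-tumor IgG group, the whole intracranial-only therapy group, and replicates 1 and 3 of the intracranial-only IgG group. Of 8 cell cycle markers, 4 also passed as lower in this comparison, and the summed level of the list was 207 to 661 CPM under therapy and 888 to 1710 CPM under IgG. Its part in these calls was not tested.

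In mice with the intracranial tumor only, therapy against IgG gave smaller values, below 0 for 5 of the 8 members. Bcl2l1 was at 62.2 ± 21.5 CPM under therapy and 81.0 ± 1.5 CPM under IgG (SD, n = 3 each), a log2 fold change of -0.38 ± 0.21 (SE), and Pmaip1 had one of -1.27 ± 0.85. The Pmaip1 value rests on a single IgG library: without replicate 2 of the intracranial-only IgG group it was 0.20. The other 6 members had log2 fold changes between -0.08 (Bbc3) and 0.12 (Bcl2). Groups did not overlap for 0 members higher (8.78% of tested genes) and 0 lower (14.4%). No gene passed the threshold here, pathway genes included, a share of 0% of all tested genes, with the smallest adjusted p at 0.134 in edgeR and 2151 genes at an unadjusted p under 0.05. DESeq2 called 1030 genes, and limma on FPKM called 1. Of the pathway genes, those with the smallest p in their list were Hrk (-4.27 ± 0.90, adjusted p 0.134), Apaf1 (0.50 ± 0.13, 0.134), Casp2 (0.22 ± 0.10, 0.364), Bcl2l2 (-0.36 ± 0.16, 0.376), Ccng1 (0.31 ± 0.15, 0.411) and Fadd (0.25 ± 0.13, 0.446), none past the threshold. Each of these 6 values had the sign opposite to that of the same gene in mice with both tumors. The 10 neuron markers, none past the threshold, had a median log2 fold change of -5.01 in the same comparison, and their part in the value of Hrk, a gene known from neurons, was not tested.

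Both tumors were then set against the intracranial tumor only, under therapy, the comparison with the most calls. It shares its both-tumor therapy libraries with the first comparison. Pmaip1 was at 2.94 ± 1.20 CPM with both tumors and 0.331 ± 0.200 CPM with the intracranial tumor only (SD, n = 3 each), a log2 fold change of 3.11 ± 0.85 (SE). Bcl2l1 was at 94.0 ± 14.6 CPM with both tumors and 62.2 ± 21.5 CPM with the intracranial tumor only (0.60 ± 0.21). Bbc3 had 17.3 ± 1.56 CPM with both tumors and 12.6 ± 1.57 CPM with the intracranial tumor only (0.45 ± 0.18), and Bax had 118 ± 20.2 CPM with both tumors and 164 ± 26.5 CPM with the intracranial tumor only (-0.47 ± 0.20). Mcl1 (0.15 ± 0.08), Bak1 (0.15 ± 0.17), Casp8 (0.11 ± 0.17) and Bcl2 (0.04 ± 0.14) differed by less. Without replicate 1 of the intracranial-only therapy group the Pmaip1 log2 fold change was 2.80. The both-tumor libraries lay above with no overlap for 2 members (Bbc3 and Pmaip1, as for 31.4% of tested genes) and below for 0 (28.5%).

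**Figure D2:**
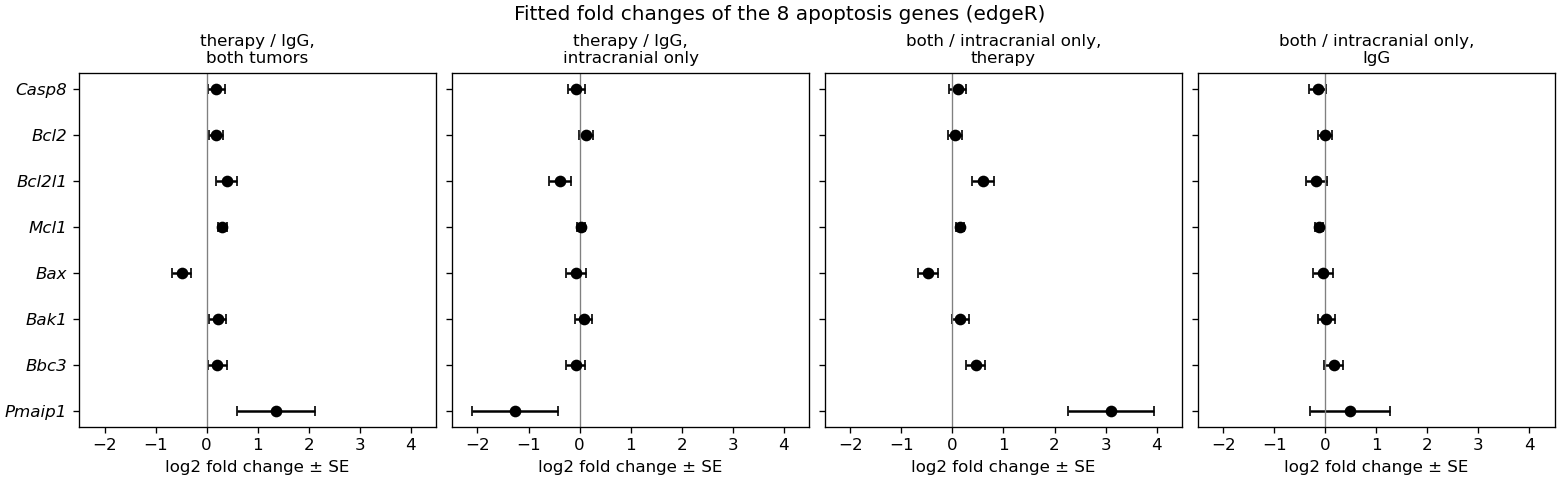
Fitted log2 fold changes ± SE of the 8 genes (edgeR, n = 3 libraries a group), with 1 panel for each comparison and the first-named group over the second. Pmaip1 had the value farthest from 0 in each panel, 3.11 between both tumors and intracranial only under therapy. Bax lay below 0 in every panel, farther in the first (-0.49) and the third (-0.47) than in the second (-0.07) and the last (-0.05).

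In that comparison 45.4% of all tested genes passed the threshold, 24.4% as higher and 21% as lower with both tumors. Of the 47 tested pathway genes, Fas, Fasl, Bcl2a1a and Eda2r reached the filter's level of 0.511 CPM in fewer than 3 libraries outside both-tumor therapy, so they were tested only through the group in which they were high. They are described by their levels and left out of the counts that follow. Of the other 43 pathway genes, 13 were higher and 11 lower with both tumors, against 23.4% higher and 21.8% lower among the 15280 tested genes left by the same rule, so calls in both directions were common in the pathway as in all genes. Among the 3 other caspases reported, 0 rose and 1 fell. Casp2 fell to between 49.7 and 57.9 CPM with both tumors, against 74.1 to 81.1 CPM with the intracranial tumor only (n = 3 each, log2 fold change -0.56 ± 0.10, adjusted p 0.00455). Casp6 (-0.09 ± 0.15) and Casp9 (0.05 ± 0.11) did not pass. Apaf1, which builds the apoptosome on which caspase 9 is activated, fell to 49.9 ± 4.32 CPM with both tumors, against 82.8 ± 9.41 CPM with the intracranial tumor only (-0.73 ± 0.13, adjusted p 0.00455).

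In the list of mitochondrial release factors and inhibitors of apoptosis, 2 of 10 rose and 4 fell, beside 23.4% and 21.8% of all genes. The inhibitors Birc2 (0.72 ± 0.16, adjusted p 0.00666) and Birc3 (1.31 ± 0.34, adjusted p 0.0114), which also act in TNF receptor signaling, rose. Birc5, or survivin, whose main known role is in cell division, fell to 30.2 ± 15.2 CPM with both tumors, against 108 ± 15.3 CPM with the intracranial tumor only (-1.83 ± 0.38, adjusted p 0.00508). Aifm1 (-0.54 ± 0.14) and Htra2 (-0.78 ± 0.25), which encode mitochondrial proteins, fell with adjusted p of 0.011 and 0.0258. The defining cell cycle markers moved with these: 8 of 8 passed as lower, at 207 to 661 CPM with both tumors and 1686 to 1932 CPM with the intracranial tumor only. Their part in the fall of Birc5 was not tested.

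In the other pro-survival list, the 3 genes counted rose, namely Bcl2l2 (0.99 ± 0.16, adjusted p 0.00455), Bcl2a1b (3.84 ± 0.97, adjusted p 0.0102) and Bcl2a1d (4.23 ± 1.40, adjusted p 0.0312). Bcl2a1a was at 0.955 to 1.89 CPM with both tumors and 0 to 0.322 CPM with the intracranial tumor only. The Bcl2a1 genes are near-identical copies known from leukocytes, so reads can be split between them and the value of each is uncertain, and in intracranial-only therapy libraries each had only 7 reads over the group. BH3-only and related genes gave 3 of 6 tested genes higher and 0 lower, again beside 23.4% and 21.8% of all genes. Hrk, a BH3-only gene known from neurons, was at 7.67 ± 4.83 CPM with both tumors and 0.205 ± 0.036 CPM with the intracranial tumor only, where the group had 12 reads in all (5.18 ± 0.92, adjusted p 0.00455). Bcl2l11, which encodes BIM and acts in lymphocyte death among other settings, had a log2 fold change of 0.88 ± 0.24 (adjusted p 0.0145) and Bmf one of 0.79 ± 0.26 (adjusted p 0.0331). Markers of other cells passed in the same direction, with neurons at 9 of 10 markers, T cells at 7 of 8, oligodendrocytes at 7 of 7, astrocytes at 5 of 6, microglia at 6 of 6, monocytes and macrophages at 4 of 7, and endothelial cells at 3 of 5, against 0 of 7 melanoma markers and 0 of 10 interferon response genes. Summed oligodendrocyte markers were at 851 to 1705 CPM with both tumors and 206 to 290 CPM with the intracranial tumor only, where Mog had 0 reads in replicates 2 and 3. Summed microglia markers were at 161 to 347 CPM with both tumors and 40.6 to 47.5 CPM with the intracranial tumor only, and those of monocytes and macrophages at 515 to 661 CPM with both tumors and 93.1 to 147 CPM with the intracranial tumor only. The part of these cells in the levels of Hrk, the Bcl2a1 genes and the other genes of this comparison was not tested.

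Of the 10 death receptor genes counted, 2 rose and 1 fell, beside 23.4% and 21.8% of all genes. The receptor Fas, not counted, was at 2.94 ± 1.56 CPM with both tumors and 0.279 ± 0.205 CPM with the intracranial tumor only. Its ligand Fasl, made by cytotoxic lymphocytes and not counted either, was at 2.14 ± 1.31 CPM with both tumors and 0.095 ± 0.120 CPM with the intracranial tumor only, where the group had 6 reads in all. Tnf rose (3.44 ± 1.18, adjusted p 0.0359), as did Cflar, whose product FLIP blocks caspase 8, with 259 ± 44.1 CPM with both tumors and 144 ± 27.3 CPM with the intracranial tumor only (0.85 ± 0.26, adjusted p 0.0235). The receptor Tnfrsf10b fell (-0.73 ± 0.25, adjusted p 0.0344). Fadd, Tradd, Ripk1, Ripk3, Mlkl, Tnfsf10 and Tnfrsf1a did not pass.

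The p53 list, whose targets include Bax, Bbc3 and Pmaip1, did not move one way: of 11 genes counted, 3 rose and 5 fell, beside 23.4% and 21.8% of all genes. Btg2 (1.87 ± 0.37, adjusted p 0.00476), Sesn1 (0.63 ± 0.17, adjusted p 0.0131) and Sesn2 (0.53 ± 0.17, adjusted p 0.0256) rose. Cdkn1a, which encodes the cell cycle inhibitor p21, fell to 64.0 ± 8.73 CPM with both tumors, against 194 ± 114 CPM with the intracranial tumor only (-1.60 ± 0.38, adjusted p 0.00796). Ccng1 (-0.67 ± 0.15, adjusted p 0.00656), Trp53 itself (-0.65 ± 0.19, adjusted p 0.0181), Aen (-0.64 ± 0.19, adjusted p 0.0182) and Mdm2, which encodes the ligase that degrades p53 (-0.43 ± 0.10, adjusted p 0.00746), also fell. Of the 28 pathway calls of this comparison (those of the 4 genes left out of the counts included), 13 passed under every alternative and every left-out library, among them those of Casp2, Apaf1, Bcl2l2, Hrk, Btg2, Cdkn1a and Birc5. Only 16 or 17 genes were called without both-tumor therapy replicate 2 or 3 (16 each), or intracranial-only therapy replicate 1 (16) or 2 (17).

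**Figure D3:**
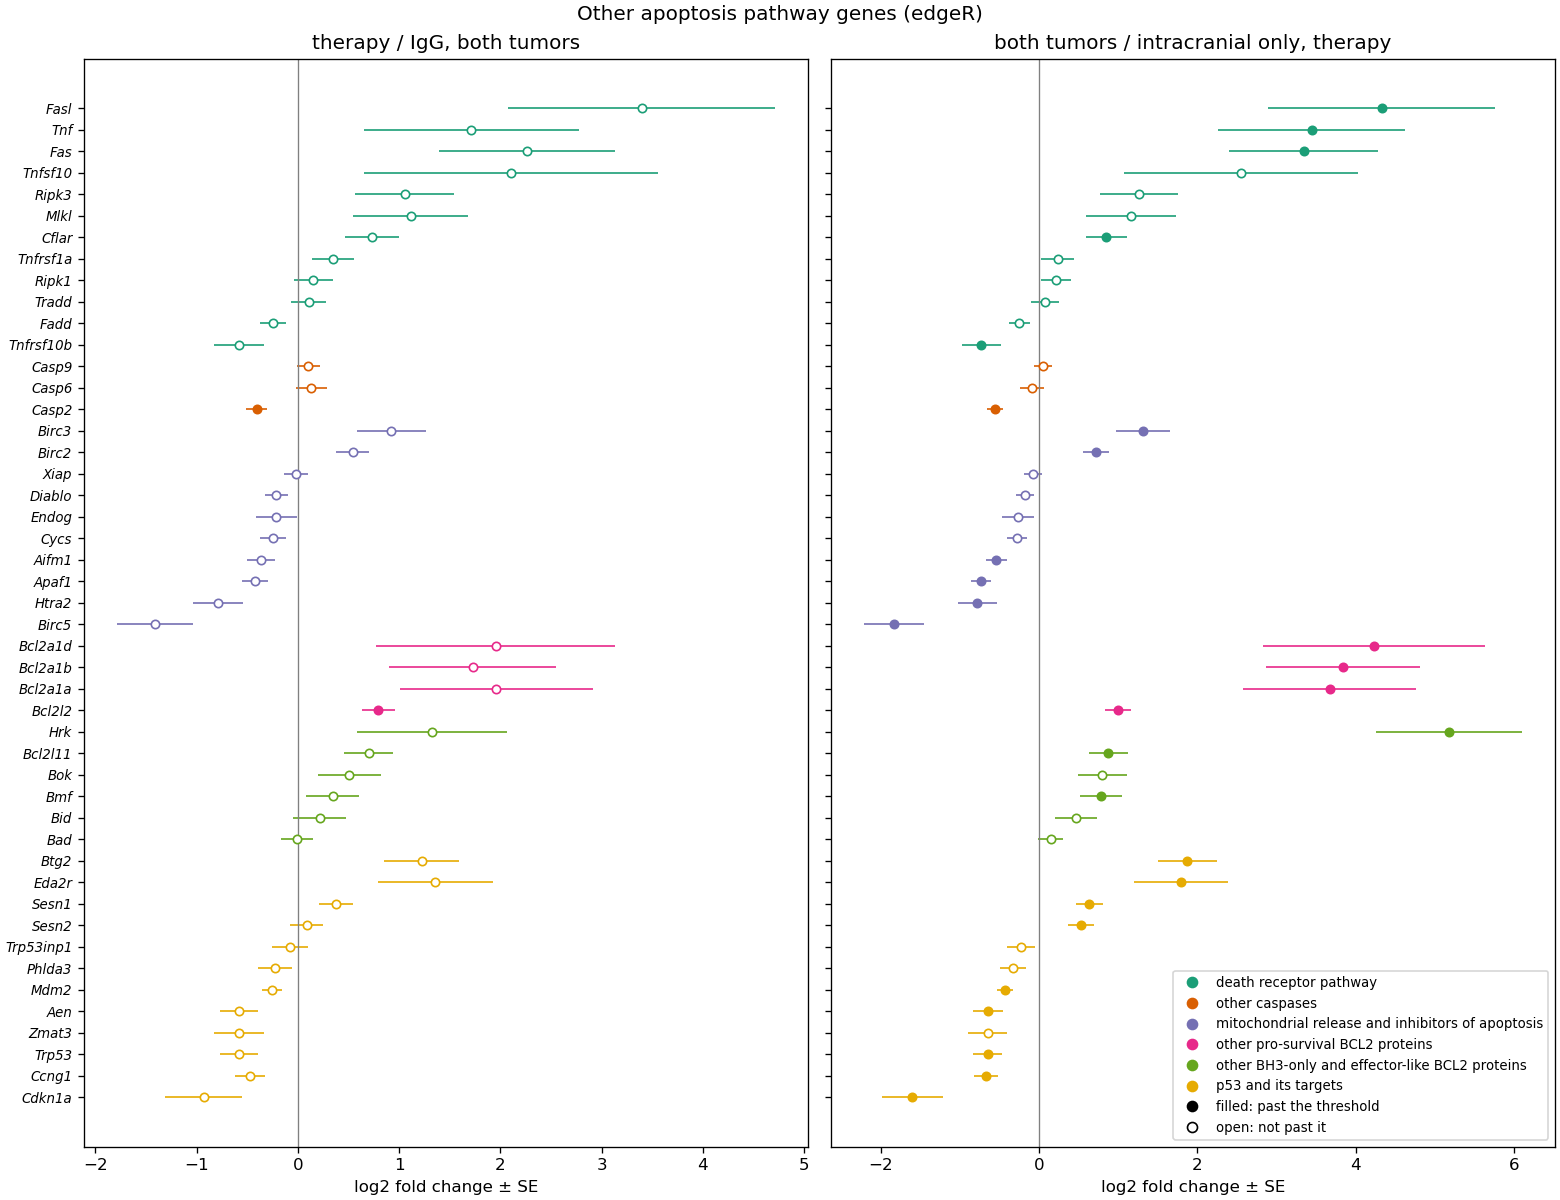
Log2 fold changes ± SE (edgeR, n = 3 libraries a group) of the 47 tested genes of the wider apoptosis pathway, ordered by list and by their value between both tumors and intracranial only under therapy. Filled points passed an adjusted p of 0.05, which 2 genes did on the left (therapy over IgG with both tumors) and 28 on the right, among them Fas, Fasl, Bcl2a1a and Eda2r, which were tested only through the both-tumor therapy libraries.

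Under IgG, the same pair of tumor conditions gave no call in any gene, a background of 0%, with the smallest adjusted p at 1 and 188 genes at an unadjusted p under 0.05, and DESeq2 called none of the pathway genes. The members' log2 fold changes lay between -0.18 ± 0.21 (SE, Bcl2l1) and 0.48 ± 0.78 (Pmaip1). Both-tumor IgG libraries lay below intracranial-only IgG libraries without overlap for 2 members, Bcl2l1 (at most 79.4 with both tumors, at least 80.0 CPM with the intracranial tumor only) and Mcl1 (at most 296, at least 309 CPM), as for 2.78% of tested genes, and above them for 0 (1.68%). The smallest p in each pathway list belonged to Fadd (0.25 ± 0.13), Endog (-0.31 ± 0.20), Sesn2 (0.24 ± 0.17), Bmf (0.40 ± 0.26), Casp6 (-0.21 ± 0.15) and Bcl2l2 (-0.16 ± 0.16), each with an adjusted p of 1.

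The difference between both therapy effects (the interaction: therapy over IgG with both tumors, less the same with the intracranial tumor only) was largest for Pmaip1 among members, at 2.62 ± 1.14 (SE, log2). It was 0.78 ± 0.29 for Bcl2l1, 0.27 ± 0.11 for Mcl1 and -0.43 ± 0.28 for Bax, and between 0.06 and 0.29 for the other 4. Without intracranial-only IgG replicate 2 the Pmaip1 value was 1.16 and that of Casp8, 0.25 with all libraries, was 0.00. Of all tested genes 22% passed, and of the 47 pathway genes 7, a smaller share. The 47 include the 4 genes tested only through the both-tumor therapy libraries, and none of the 7 is among them. Casp2 (-0.63 ± 0.14), Apaf1 (-0.92 ± 0.18), Birc5 (-1.71 ± 0.52) and Ccng1 (-0.78 ± 0.21) had lower values in the therapy effect with both tumors, and Bcl2l2 (1.15 ± 0.23), Hrk (5.59 ± 1.17) and Btg2 (1.93 ± 0.52) higher ones, with adjusted p from 0.0321 to 0.0432. Each of these calls was lost when any 1 of 8 to 10 of the 12 libraries was left out. Neuron markers (9 of 10 higher) and cell cycle markers (8 of 8 lower) also passed in the interaction. So did markers of oligodendrocytes (6 of 7 higher), astrocytes (4 of 6), microglia (6 of 6), monocytes and macrophages (2 of 7) and endothelial cells (2 of 5). T cell markers (0 of 8) did not pass, though their median log2 value was 4.07. The part of all these cells was not tested. Fas had the smallest p of the death receptor list (3.8 ± 1.28, adjusted p 0.055) and did not pass. It was tested only through the both-tumor therapy libraries, which the interaction holds, so its value is a description.

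The 8 genes followed different genes across the 12 libraries. The following Pearson correlations of log2 CPM are a description over libraries that share groups and composition. Casp8 and Bak1 were the most alike pair of members (r = 0.84), and both followed Eng (r = 0.88 and 0.98), a gene of endothelial cells and macrophages. Beside Eng, Casp8 was closest to Rbms2 (0.90) and Zup1 (0.88), and Bak1 to Pcgf5 (0.94) and Ly75 (0.94). Pmaip1 was closest to Tnf (0.99), Il21r (0.98) and Bcl2a1d (0.98), all low-count genes here, and Bax to the ribosomal genes Rpl13 (0.99) and Rpsa (0.98) and the mitochondrial ribosomal gene Mrpl12 (0.98). Mcl1 was closest to Adamtsl4 (0.95), Cd82 (0.94) and Blvrb (0.93), Bcl2l1 to Cebpd (0.96), Gpr55 (0.95) and Ncam1 (0.94), Bbc3 to Ccndbp1 (0.94), Uqcc3 (0.94) and Pdgfrl (0.93), and Bcl2 to Yipf4 (0.85), Grb10 (0.78) and Moxd1 (0.76). Bax ran against Pmaip1 (r = -0.73) and Mcl1 (-0.62).

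Set beside marker scores (the mean log2 CPM of each list), Pmaip1 went with the T cell score (r = 0.95) and the interferon response score (0.93), Bak1 with the monocyte and macrophage score (0.81), Casp8 with the same score (0.79) and the interferon score (0.72), and Bax with the cell cycle score (0.77). Other scores came close, so these pairs are not particular. Pmaip1 had r = 0.91 with the monocyte and macrophage score and Bak1 0.79 with the interferon score. With the T cell score, Casp8 had r = 0.68 and Bax -0.755. Bcl2 stood apart, with r between -0.32 and 0.02 for all 10 scores. The interferon score was 7.47 to 9.18 in both-tumor therapy libraries, 3.95 to 6.79 in both-tumor IgG libraries, 2.50 to 7.35 in intracranial-only therapy libraries and 2.39 to 7.99 in intracranial-only IgG libraries, where 7.99 belonged to replicate 2, the library with the highest Casp8. Whether these cells or signals set the member levels was not tested.

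**Figure D4:**
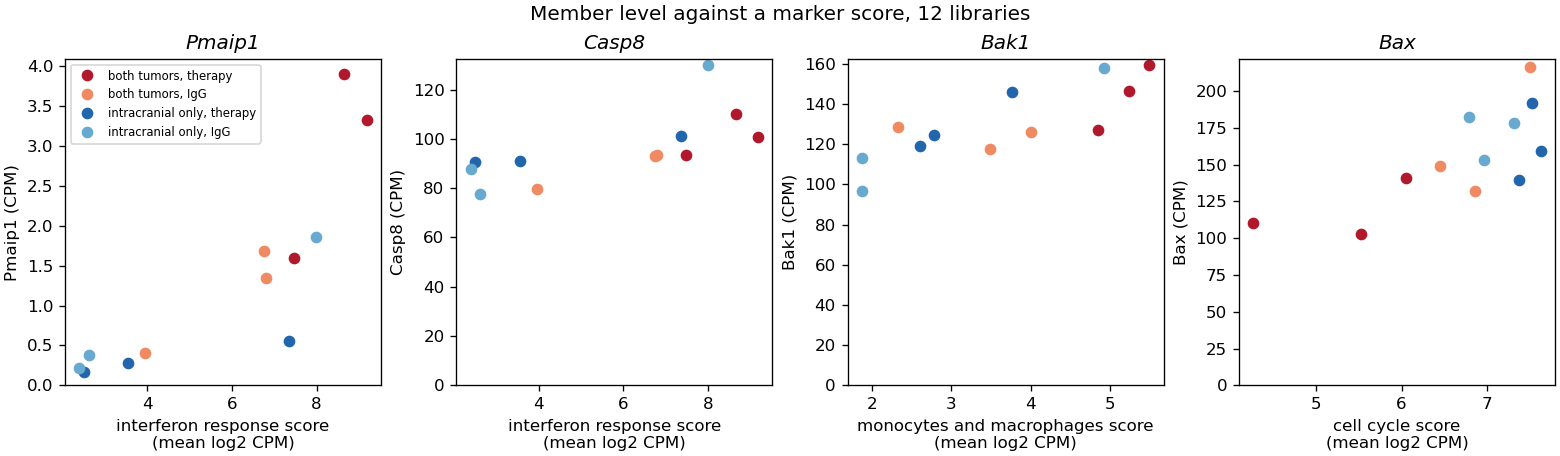
CPM of Pmaip1, Casp8, Bak1 and Bax (y axis) against a marker score (x axis, mean log2 CPM of the list), with 1 point for each of the 12 libraries, colored by group. Pmaip1 and the interferon score have r = 0.93, and Bax and the cell cycle score r = 0.77.

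Promoter windows (250 bases before to 50 after the start in RefSeq on GRCm38.p6) were used for 7 of the 8 genes, all but Pmaip1. They are shown for Casp8 and Bak1, the pair most alike across libraries, and for Bax, a known p53 target that ran against its fellow target Pmaip1. Capitals in the Bax window mark a match to the p53 half-site consensus, with its first base at -201 from the start.
Casp8 chr1:58802252-58802551, plus strand: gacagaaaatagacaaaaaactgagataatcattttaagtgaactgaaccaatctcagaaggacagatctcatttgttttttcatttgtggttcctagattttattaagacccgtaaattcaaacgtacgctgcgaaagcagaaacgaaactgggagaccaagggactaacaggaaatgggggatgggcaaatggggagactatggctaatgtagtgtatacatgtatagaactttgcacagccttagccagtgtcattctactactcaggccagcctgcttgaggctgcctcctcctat
Bak1 chr17:27028578-27028877, minus strand: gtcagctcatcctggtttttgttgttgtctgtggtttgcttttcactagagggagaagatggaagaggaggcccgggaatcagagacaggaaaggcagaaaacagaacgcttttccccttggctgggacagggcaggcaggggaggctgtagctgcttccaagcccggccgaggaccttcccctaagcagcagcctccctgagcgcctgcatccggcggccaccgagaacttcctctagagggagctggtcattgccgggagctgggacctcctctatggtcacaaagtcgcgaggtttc
Bax chr7:45466849-45467148, minus strand: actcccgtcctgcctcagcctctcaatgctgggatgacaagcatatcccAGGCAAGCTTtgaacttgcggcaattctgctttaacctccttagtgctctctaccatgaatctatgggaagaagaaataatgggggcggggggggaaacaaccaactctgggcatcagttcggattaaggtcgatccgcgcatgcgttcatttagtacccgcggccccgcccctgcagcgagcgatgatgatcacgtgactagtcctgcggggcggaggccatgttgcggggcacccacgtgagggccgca
On either strand, the interferon-stimulated response element core, GAAA followed by any 2 letters and GAAA, was in a window of 0 of the 7 genes and of 3.99% of all 27025 genes with RefSeq promoter windows, and the STAT site TTCNNNGAA in 0 and 9.55%. The p53 half-site consensus was in a window of 1 of the 7 (Bax) and of 9.55% of all genes, and the NF-kB consensus in 2 (Bcl2l1 and Bbc3) and 5.14%. The GC box GGGCGG was in a window of 4 of the 7 and of 38.2% of all genes, CCAAT in 2 and 41.1%, and TGACG, the core of the cyclic AMP response element, in 3 and 23.0%. A gene can have more than 1 window. The Casp8 and Bak1 windows had 42.0% and 58.3% G and C, and that of Bcl2 had 76.0%. A match is a run of letters and not evidence of binding, and no match says only that the letters are not in this window.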

How the data were processed

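Counts and FPKM of 12 libraries were used, as deposited by the authors, with groups taken from the labels and replicates numbered in accession order. Per the submitters' processing notes, alignment used Bowtie2 2.2.3 and TopHat2 2.0.12, counting per Ensembl gene used HTSeq 0.6.1, and the builds named are mm10 and GRCm38. Neither the annotation release nor the use of strand is stated there. The deposited FPKM equalled count over length and library total for all 16062 genes with reads in every library (relative tolerance 1e-06). Of 47069 identifiers, 46488 matched a symbol.

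Counts were tested in R 4.3.3 with edgeR 4.0.16 (quasi-likelihood test, TMM factors, 4 group means over all 12 libraries, filterByExpr with a minimum count of 10 and a minimum total of 15), with Benjamini-Hochberg adjustment over 15925 genes and a threshold of 0.05. There were 5 comparisons, and the interaction was one of them. Standard errors are the log2 fold change over the root of its F statistic. The series text calls each group biological triplicates. The p-values set differences between group means against the spread between libraries, estimated over all 4 groups. Alternatives were RLE size factors, no filter, DESeq2 1.42.0, limma 3.58.1 on log2(FPKM + 1) and log2(FPKM + 0.1) for genes with a mean FPKM of at least 0.1, fits of only the groups compared, and leaving out each library. The script was tested on simulated data. Members and gene lists were chosen with earlier results of these data known. Named pathway genes are all those past the threshold and, per list and comparison, the one with the smallest p; for each member the 3 most correlated named genes (log2 CPM, prior count 2) are given. No test is read for members. Of 49 other pathway genes, Bik and Bcl2l10 did not pass the filter; some genes of the pathway are not reported here. Promoter windows for Pmaip1 and protein sequences were not used here.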

Additional observations from a re-analysis of the deposited data

Results flagged for a closer look

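The therapy effect differed between mice with both tumors and mice with the intracranial tumor only, by the interaction test of edgeR, for 7 of 47 pathway genes, a smaller share than the 22% of all tested genes. Each call was lost when any 1 of at least 8 of the 12 libraries was left out. The log2 differences (both tumors less intracranial only) were -0.63 for Casp2, -0.92 for Apaf1, -1.71 for Birc5, -0.78 for Ccng1, 1.15 for Bcl2l2, 5.59 for Hrk and 1.93 for Btg2. Markers of neurons (9 of 10), oligodendrocytes (6 of 7), astrocytes (4 of 6) and microglia (6 of 6) also passed in the interaction as higher. Those of the cell cycle (8 of 8) passed as lower. T cell markers (0 of 8) did not pass, though their median log2 difference was 4.07. The part of these cells was not tested.

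The log2 fold changes of Eda2r, a TNF receptor family member and p53 target, had opposite signs under therapy and IgG, and the IgG value was not called. Under therapy the log2 fold change of both tumors over intracranial only was 1.79, with all both-tumor libraries higher (0.547 to 0.873 CPM, against 0.046 to 0.387 CPM with the intracranial tumor only). The gene passed the filter on low counts only through the both-tumor therapy libraries, so that value is a description. Under IgG it was -0.61 (adjusted p 1 in edgeR), with all both-tumor libraries lower (0.191 to 0.303 CPM, against 0.310 to 0.591 CPM). The interaction did not pass (2.40 ± 0.84 SE, adjusted p 0.0614). It holds the same both-tumor therapy libraries, so it is a description too, and the gene had 1 to 19 reads per library.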

How the results depend on the processing

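No called fold change turned its sign under any alternative run, and 691 of 711 member fold changes under alternatives were within 1 SE of the value reported. For therapy over IgG with both tumors, 858 genes passed (23.1% of them higher). None passed with RLE factors, without a filter or with only those groups; 3323 passed by DESeq2 (40.5% higher), 2291 on log2(FPKM + 1) (46% higher) and 1459 on log2(FPKM + 0.1), and between 0 and 2394 with a library left out. Counts of members describe the fits and support nothing. Of members, 1 passed by DESeq2 and both FPKM fits (Mcl1), and 0 to 1 with a library left out. Pathway calls went to 0 with RLE factors, without a filter and with only those groups, to 13 by DESeq2 and 8 on log2(FPKM + 1), and ranged over 0 to 10. For intracranial only, 1030 genes passed by DESeq2, 1 on each FPKM scale, 839 with only those groups and 0 to 1002 with a library left out (1002 without both-tumor IgG replicate 2); pathway calls were 2 by DESeq2, 1 with only those groups and 0 to 2. Under therapy, both tumors over intracranial only gave 7231 genes as fitted, with 2 members among them. With a library left out it gave 4710 to 8128 genes, 0 to 3 members and 16 to 31 pathway genes. There was 1 member among 6688 genes without a filter and 1 among 7274 with only those groups. There were 4 members among 7811 genes by DESeq2, 4 among 7349 on log2(FPKM + 1) and 4 among 7261 on log2(FPKM + 0.1). Leaving out the 4 pathway genes tested through 1 group alone, a rule chosen after seeing the data, gave 24 pathway calls, against 28. For the interaction, DESeq2 called 4954 genes, with 2 members and 12 pathway genes among them. With a library left out, edgeR called 0 to 4367 genes, 0 members and 0 to 13 pathway genes. Under IgG no alternative run gave a call in any gene. The cause of these changes was not tested. Pmaip1 reached 0.90 on log2(FPKM + 1) under therapy, since that scale compresses low values. At 3 to 85 reads, its fold changes are imprecise. No paired analysis was possible because the labels give no replicate numbers, batch or litter.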

Other observations

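A ratio of pro-survival to effector transcripts was computed after the levels were seen, so it is a description with no test. It is the summed FPKM of Bcl2, Bcl2l1 and Mcl1 over that of Bax and Bak1. It was 0.839, 1.04 and 1.06 in both-tumor therapy libraries, 0.761, 0.554 and 0.738 in both-tumor IgG libraries, 0.599, 0.768 and 0.751 in intracranial-only therapy libraries, and 0.708, 0.662 and 0.821 in intracranial-only IgG libraries. The 3 both-tumor therapy libraries had the highest values of the 12, the lowest of them just above the highest IgG value. Bcl2l1 over Bax alone was 0.324, 0.537 and 0.6 in both-tumor therapy libraries, against 0.302, 0.183 and 0.314 in both-tumor IgG libraries. Transcript ratios of whole tumors mix the cell types of each tumor, and protein was not measured.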
